A study of Drosophila melanogaster with 3 samples.

Results

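Divergent promoter peaks are peaks of Sox15 occupancy that lie beside the start sites of a gene on each DNA strand, so that 1 peak is shared by neighbouring promoters. They were taken from the 4555 reproducible peaks of a chromatin immunoprecipitation and sequencing (ChIP-seq) experiment. A peak was a member when its summit, the position of highest signal given by the authors, lay within 500 bp of annotated starts of protein-coding transcripts on both strands, from at least 2 different genes. Of the 4555 peaks 688 met this rule (15.1%, 95% Wilson interval 14.1 to 16.2%). Another 1066 peaks lay near protein-coding starts on 1 strand and are called one-strand promoter peaks, and 2801 lay away from protein-coding starts. Members therefore made up 39.2% of the 1754 peaks near a protein-coding start. Intervals on shares and densities cover counting error only.

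The chromatin came from whole prepupae of Drosophila melanogaster, the stage between the larva and the pupa, with the sexes mixed and the age not given. All animals belonged to the strain Sox15-GFP, in which an insertion adds green fluorescent protein to the C-terminal end of Sox15, and an antibody against GFP was used for the precipitation. There was 1 group of 3 biological replicates, whose deposited lists held 19304, 19033 and 16102 peaks. The reproducible set was identical to the 4555 strongest of 14164 peaks called on the pooled replicates, and is called the IDR set after the irreproducible discovery rate analysis that produced it. Nothing in the labels allowed a contrast with untagged animals, and the reads of the control named among the inputs of the peak lists were not analysed here. In whole animals, occupancy in few cells and weak occupancy in many cells cannot be told apart.

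Sox proteins are transcription factors that bind and bend DNA through a high-mobility-group domain, and in flies Sox15 is known for roles in the wing hinge and in the socket cells of sensory bristles. In the compact fly genome many genes lie back to back, and the short stretch between their starts then serves as promoter for both. Such stretches are often free of nucleosomes, and many of them belong to housekeeping genes and hold elements such as the DNA replication-related element (DRE), bound by the factor DREF, or Motif 1, a core promoter element.

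The stretches between the starts show the DNA that such genes share. Here 10 are shown of the 12 that the rule for printed sequences chose among the 251 members with a stretch of at most 300 bases, with no annotated exon, at genes that point away from each other, off an arm that was left out. They are 6 of the strongest members and 4 that hold the DRE or Motif 1. The summit lies within the stretch in all of them but Chro/Ssl1 and Ripalpha/RpL7, where it lies beside it in an annotated 5′ UTR. The 2 chosen stretches left out, at CG8372/CG8360 and Bdp1/CG6565, held none of the motifs marked below, apart from the word AGGGG at CG8372/CG8360. Each is read on the plus strand, from the base after the start of the minus-strand gene to the base before the start of the plus-strand gene, in dm6 coordinates, with letters from the RefSeq Release 6 assembly. Capitals mark matches on either strand to the DRE (TATCGATA), its core ATCGAT, Motif 1 or its core GGTCACAC, the E-box CAGCTG, the Sox core AACAAT and 3 words that were chosen after the values had been seen, namely GGCGTAG, the short word AGGGG and the form CANCNCTA. Chro and Ssl1 encode the chromodomain protein Chromator and a subunit of the general factor TFIIH. Tcs5 encodes a tRNA modification kinase and CHMP2B a membrane-remodelling ESCRT protein. Art3 encodes an arginine methyltransferase and mRpS10 a mitochondrial ribosomal protein. Atat encodes an α-tubulin acetyltransferase and Shc a signalling adaptor.
Chro/Ssl1, chr3L:22878985-22879088, plus strand, peak signal 2618: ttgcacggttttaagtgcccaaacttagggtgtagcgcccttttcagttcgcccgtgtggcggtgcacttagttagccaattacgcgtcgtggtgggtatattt
Tcs5/CHMP2B, chr3L:5139396-5139618, plus strand, peak signal 2496: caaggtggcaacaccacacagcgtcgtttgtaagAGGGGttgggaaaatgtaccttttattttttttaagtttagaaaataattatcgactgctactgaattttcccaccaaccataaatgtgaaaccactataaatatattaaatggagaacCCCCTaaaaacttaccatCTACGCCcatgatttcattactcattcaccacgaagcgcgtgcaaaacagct
Art3/mRpS10, chr3R:15229409-15229664, plus strand, peak signal 2332: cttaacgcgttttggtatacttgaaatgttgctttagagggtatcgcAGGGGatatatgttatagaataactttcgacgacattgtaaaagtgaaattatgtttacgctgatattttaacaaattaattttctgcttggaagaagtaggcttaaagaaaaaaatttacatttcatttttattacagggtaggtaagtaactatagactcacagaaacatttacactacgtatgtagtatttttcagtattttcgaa
Atat/Shc, chr3L:9426759-9427009, plus strand, peak signal 2058: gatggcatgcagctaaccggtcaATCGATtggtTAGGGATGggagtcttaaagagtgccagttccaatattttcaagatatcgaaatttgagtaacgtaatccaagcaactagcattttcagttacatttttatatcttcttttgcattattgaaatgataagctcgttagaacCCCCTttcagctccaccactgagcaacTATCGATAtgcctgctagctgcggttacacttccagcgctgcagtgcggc
CG3437/CG3552, chr3L:9457670-9457911, plus strand, peak signal 1568: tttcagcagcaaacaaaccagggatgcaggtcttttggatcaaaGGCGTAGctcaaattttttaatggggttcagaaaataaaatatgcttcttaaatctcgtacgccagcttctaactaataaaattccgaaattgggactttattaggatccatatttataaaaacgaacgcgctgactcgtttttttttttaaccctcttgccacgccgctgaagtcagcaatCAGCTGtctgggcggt
Lon/PIG-F, chr3L:19612200-19612454, plus strand, peak signal 1298: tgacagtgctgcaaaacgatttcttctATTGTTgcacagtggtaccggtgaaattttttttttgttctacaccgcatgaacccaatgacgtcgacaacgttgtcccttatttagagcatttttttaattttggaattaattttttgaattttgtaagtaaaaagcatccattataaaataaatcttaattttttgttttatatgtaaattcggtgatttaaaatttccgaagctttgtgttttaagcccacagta
fws/Lamtor3, chr2L:17481030-17481230, plus strand, peak signal 1182: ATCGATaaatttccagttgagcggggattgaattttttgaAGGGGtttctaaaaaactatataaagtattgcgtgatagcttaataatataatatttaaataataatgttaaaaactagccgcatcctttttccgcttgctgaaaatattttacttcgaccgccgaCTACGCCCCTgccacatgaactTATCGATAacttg
Gmd/CG3792, chr2L:4977024-4977311, plus strand, peak signal 553.1: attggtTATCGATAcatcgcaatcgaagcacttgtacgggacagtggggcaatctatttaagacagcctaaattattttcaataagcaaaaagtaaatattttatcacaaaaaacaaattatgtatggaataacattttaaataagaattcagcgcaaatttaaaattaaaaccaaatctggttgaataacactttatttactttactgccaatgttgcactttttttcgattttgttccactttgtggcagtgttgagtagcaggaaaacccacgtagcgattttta
CG32856/Rbf2, chr3R:15965352-15965445, plus strand, peak signal 439.5: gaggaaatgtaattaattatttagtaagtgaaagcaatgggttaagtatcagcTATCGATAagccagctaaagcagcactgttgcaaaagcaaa
Ripalpha/RpL7, chr2L:10200975-10201003, plus strand, peak signal 388.9: cccactccgcggcCAGTGTGACCGtttgg

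**Figure D1:**
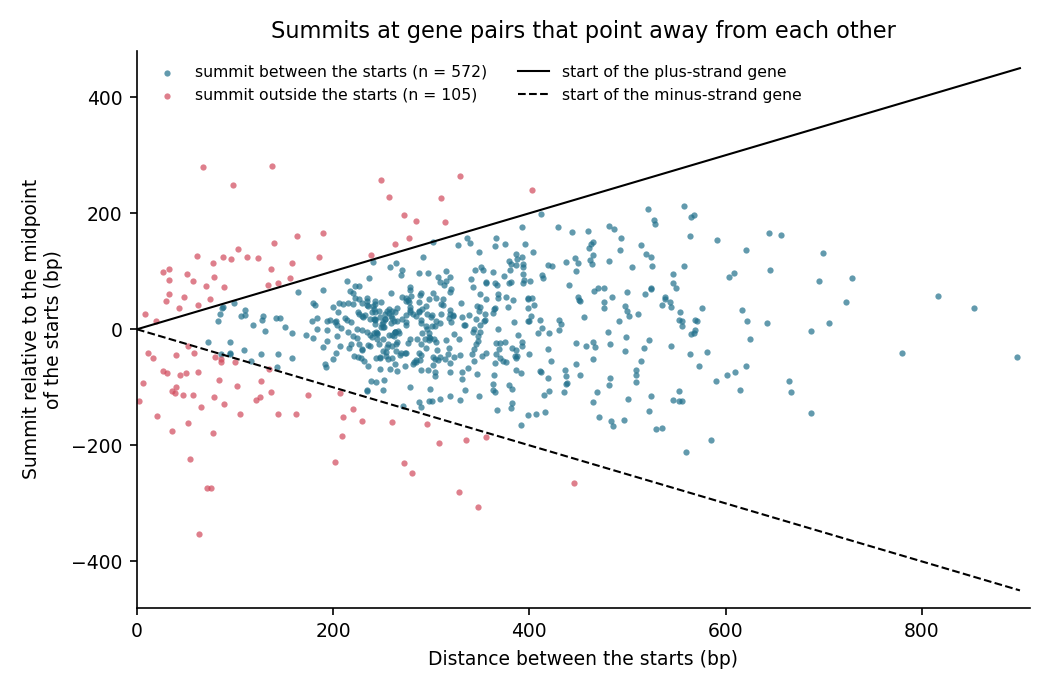
Each point is 1 of 677 members whose genes point away from each other, with the distance between the starts on the x axis (bp) and the summit relative to the midpoint of the starts on the y axis (bp). Lines mark the starts. The 572 summits between the starts fill the wedge from about 200 bp of separation on, and most of the 105 summits outside it lie at shorter distances.

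Nearly all members sat where a pair of genes diverges. In 677 of 688 members (98.4%) the nearest starts on the 2 strands pointed away from each other, and in 11 the genes overlapped at their 5′ ends. The rule fixed that starts lay on both strands within the window, but not their orientation. It fixed that the summit fell between divergent starts only where these were 500 bp or more apart. The share of this orientation over all both-strand positions of the annotation is not given here. The 98.4% is therefore not read as a trait of the peaks. The 688 members lay at 656 distinct nearest pairs, of which 32 had more than 1 member, and 1355 genes had a start within the window. Some members of the same pair were overlapping calls, such as those at Hat1/Rpn5 and at DnaJ-H/Sirt1, which met the same peak in each replicate. Each call was counted as a member of its own. In 656 members exactly 2 genes were in reach, in 28 there were 3, and in 4 there were more, with 10 in 1 case.

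The summit lay between the starts in 572 of the 677 divergent members (84.5%, 95% Wilson interval 81.6 to 87.0%). These include 86 members with starts more than 500 bp apart, for which the rule allowed no other place. The starts were 301 bp apart in the median (quartiles 231 and 402 bp, range 2 to 897 bp). The nearer start was 100 bp from the summit in the median (quartiles 68 and 140 bp) and the farther start 211 bp. One-strand promoter peaks lay 207 bp from their nearest start in the median, a gap that the rule sets in part, since a position in reach of a start on each strand tends to lie close to 1 of them. Summits favoured neither strand by much, with 53.2% nearer to the start of the plus-strand gene (95% Wilson interval 49.5 to 56.9%).

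Where the summit sat changed with the distance between the starts, in part because of the rule. With starts 1 to 100 bp apart the summit lay between them in 15.4% of 65 members, and with starts 101 to 200 bp apart in 60.3% of 58. The share was 92.0% of 213 members at 201 to 300 bp, 95.3% of 170 at 301 to 400 bp and 97.7% of 85 at 401 to 500 bp, and all 86 members with starts farther apart had the summit between. The window of the rule sets part of this. A summit within 500 bp of both starts must fall between them once these are 500 bp or more apart. The result for the last 86 members was therefore fixed by the rule. At shorter distances the part of the eligible positions that lies between the starts also grows with the distance. How much of the rise this explains was not tested. At close pairs most summits lay beyond the starts, inside 1 of the genes. dpa, which encodes a subunit of the replicative helicase, and didum, which encodes a myosin motor, have starts 2 bp apart, with a member signal of 345.2, followed by CG3032/CG4593 at 6 bp with 504.1 and SerRS/CG17260 at 8 bp with 567.5. Median signal differed little with the distance, at 245.9, 229.0, 254.8, 219.9, 210.7 and 213.2 from the closest to the widest of these 6 bins, and it was 341.1 in the 11 overlapping pairs.

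Most members had their summit outside annotated genes. In 69.6% the summit was intergenic, in 18.0% it lay in an annotated 5′ UTR and in 11.0% in an intron, while 2 summits lay in coding exons. Among one-strand promoter peaks 46.1% were intergenic and 38.1% intronic. The summit was upstream of its nearest start in 84.5% of members (95% Wilson interval 81.6 to 87.0%) and in 86.4% of one-strand promoter peaks (84.2 to 88.3%), so the intervals overlap. The stretch from 50 to 200 bp upstream of the nearest start held 64.7% of members.

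The limit of 500 bp falls in the sparse tail of these distances. Just inside it lay the summits at CG13605/Root, Nbr/Noc2 and crp/pkaap, 496, 492 and 491 bp from the farther start, with signals of 149.0, 180.9 and 148.4. Just outside it were Nepl19/Nepl20, CG6051/Men-b and sni/Trxr1, at 504, 505 and 508 bp, with signals of 331.2, 165.3 and 153.1.

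The 25 strongest members ranked high in every replicate. They were chosen by signal in the pool of these replicates, so high ranks there are built in and were not tested. The signals are the authors' values, on a scale not given, and serve only to order and describe peaks within 1 list. Chro/Ssl1 led with a pooled signal of 2618, and its signals were 1247, 773.7 and 612.3 in replicates 1, 2 and 3, where it ranked 6, 5 and 8. Tcs5/CHMP2B followed with 2496 and ranks of 7, 12 and 6. Art3/mRpS10 had 2332 and ranks of 12, 9 and 14. These 3 peaks were thus among the 14 strongest of every list.

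Atat/Shc had a pooled signal of 2058, with ranks of 25, 17 and 10. mRpS23/CenG1A, the genes of a mitochondrial ribosomal protein and of an Arf GTPase-activating protein, had 1908 and ranks of 26, 19 and 29. CG5611/Mtl, the latter a Rac-like GTPase gene, had 1754 and ranks of 28, 35 and 34. In all 25 members the ranks ran from 5 to 104 over the 3 replicates, and 24 were matched in all of them by the overlap rule below. CG10747/Pyroxd1 was the exception, with ranks of 79, 64 and 59 but too small an overlap in 1 replicate.

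Among the 25 strongest were pairs of genes with varied textbook roles, and no theme was tested. Pex11ab/CG8320 had a signal of 2184, CG5757/CG5098 1938, CG8372/CG8360 1568 and CG3437/CG3552 1568. mRpL23/CG9004 had 1567, Fbw5/CG9147 1530 and Pdrg1/Pal1 1492. Bdp1/CG6565, the first a subunit of the RNA polymerase III factor TFIIIB, had 1401, and Lon/PIG-F, genes of a mitochondrial protease and of GPI anchor synthesis, had 1298. CG7601/CIA30 (1265), Mkk4/SLIRP2 (1256), Wdr24/IntS11 (1244), CG32022/CG6511 (1244) and Mnat9/CG1792 (1244) came next. Wdr24 encodes a component of the nutrient-sensing GATOR2 complex and IntS11 the endonuclease of the Integrator complex. Hrd3/PTPMT1, fws/Lamtor3, CG13018/CG13016 and CG13390/CG17294 closed the list at 1195, 1182, 1155 and 1138. In 14 of the 25 pairs at least 1 gene is known only by its CG number. The summit lay between the starts in 19 of the 25, and the nearest start was 2 to 156 bp away.

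**Figure D2:**
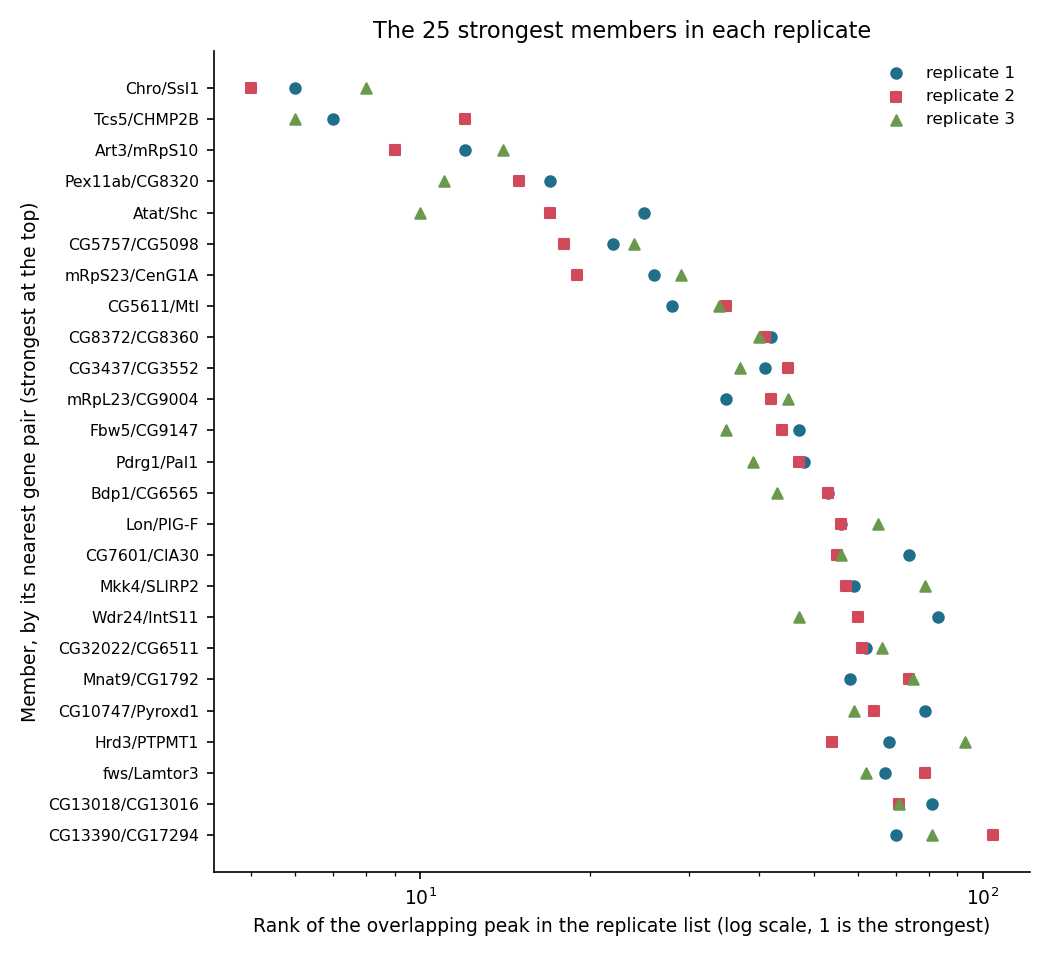
The 25 members of highest pooled signal are listed from top to bottom by their nearest genes, and the x axis (log scale) gives the rank of the overlapping peak in each replicate list, where 1 is the strongest. All ranks fall between 5 and 104. The members were chosen from the pool of these replicates, so high ranks are built in.

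Over all members the pooled signal ran from 116.7 to 2618 with a median of 232.0 (quartiles 165.5 and 380.1). The median was 216.0 in one-strand promoter peaks and 196.6 in peaks away from starts. Members held 32 of the 100 strongest IDR peaks, one-strand promoter peaks 31 and peaks away from starts 37. In the strongest quartile of the IDR set were 32.4% of members (95% Wilson interval 29.0 to 36.0%), and in the weakest 17.4% (14.8 to 20.5%). For one-strand promoter peaks these shares were 29.3% (26.6 to 32.1%) and 24.8% (22.3 to 27.4%). The intervals of members and one-strand promoter peaks thus overlap in the strongest quartile and lie apart in the weakest. Of the 1189 pooled peaks that met the rule, 57.9% (55.0 to 60.6%) reached the IDR set, against 39.2% (37.4 to 41.1%) of one-strand and 27.3% (26.5 to 28.2%) of other pooled peaks. The weakest members were Slu7/Pkc98E (116.7), mRpL47/CG8176 (117.0) and Naxe/RhoU (118.3).

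Signals of the overlapping peaks were compared in each replicate on its own list. In replicate 1 they ran from 44.8 to 1247 with a median of 119.1 over all 688 members. In replicate 2 the median was 65.5 (range 13.9 to 773.7) over 682 members, and in replicate 3 it was 54.6 (14.6 to 662.3) over 679. The 6 and 9 members with no overlapping peak in replicates 2 and 3 include CG2126/faf and RpL36/Mybbp1A in replicate 2 and Dref/RpL13 and Bug22/TfIIB in replicate 3.

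Members ranked slightly above one-strand promoter peaks in every replicate. Placed in percentiles of each replicate's full list, with a missing peak counted as 0, the median member stood at 90.6, 90.3 and 88.3 in replicates 1, 2 and 3. One-strand promoter peaks stood at 89.8, 89.6 and 87.5, and peaks away from starts at 87.9, 87.7 and 85.5. The difference to one-strand peaks was 0.761 ± 0.0787 percentile points (SD, n = 3), positive in 3 of 3 replicates, with an exact sign-flip permutation p of 0.25 (two-sided). That to peaks away from starts was 2.69 ± 0.130 (SD, n = 3; exact p = 0.25). A p of 0.25 is the smallest that 3 replicates allow, so neither difference could pass 0.05. It reflects only that the 3 differences have the same sign, and not their size or spread.

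A member was called matched in a replicate when 1 of the 4555 strongest peaks there covered at least 50% of it. In all 3 replicates 531 of 688 members were matched (77.2%, 95% Wilson interval 73.9 to 80.2%), against 73.4% of all IDR peaks, 71.5% (68.7 to 74.1%) of one-strand promoter peaks and 73.3% (71.6 to 74.9%) of peaks away from starts. The share of all IDR peaks lies just below the members' interval, and those of the other classes overlap it, so members stood close to the background here. By replicate, 95.1%, 89.0% and 87.9% of members were matched, 121 in 2 replicates, 36 in 1 and 0 in none. The IDR peaks come from the pool of these replicates, so the overlap is built in and was not tested.

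Positions that meet the both-strand rule were a small and densely occupied part of the genome. They covered 1.68 Mb and held 411 IDR summits per Mb (95% exact Poisson interval 381 to 443). The 13.7 Mb near starts on 1 strand held 78.1 per Mb (73.4 to 82.9), and the remaining 118.5 Mb held 23.6 (22.8 to 24.5). The ratio of both-strand to one-strand density was 5.26 (95% exact interval 4.78 to 5.80). Members came from every arm, with 411.5 per Mb of such positions on 2L, 348.4 on 2R, 475.8 on 3L, 492.2 on 3R, 290.3 on X and 1 member on 4. The intervals of X (228 to 364) and 3R (427 to 564) do not overlap.

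The difference held at matched distances from a start, within 300 bp. At 51 to 100 bp from the nearest start there were 646 members per Mb (95% exact Poisson interval 564 to 736) and 76.4 one-strand peaks per Mb (62.7 to 92.3). Between 101 and 150 bp the values were 727 and 130.9, and between 201 and 300 bp 243.4 and 92.6. Beyond that the intervals overlapped, with 62.4 (26.9 to 122.9) and 69.4 (59.8 to 80.1) at 301 to 400 bp. At the one-strand density of each distance the same positions would have held 141 summits, which gives a ratio of 4.89, an alternative added after the data had been seen.

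**Figure D3:**
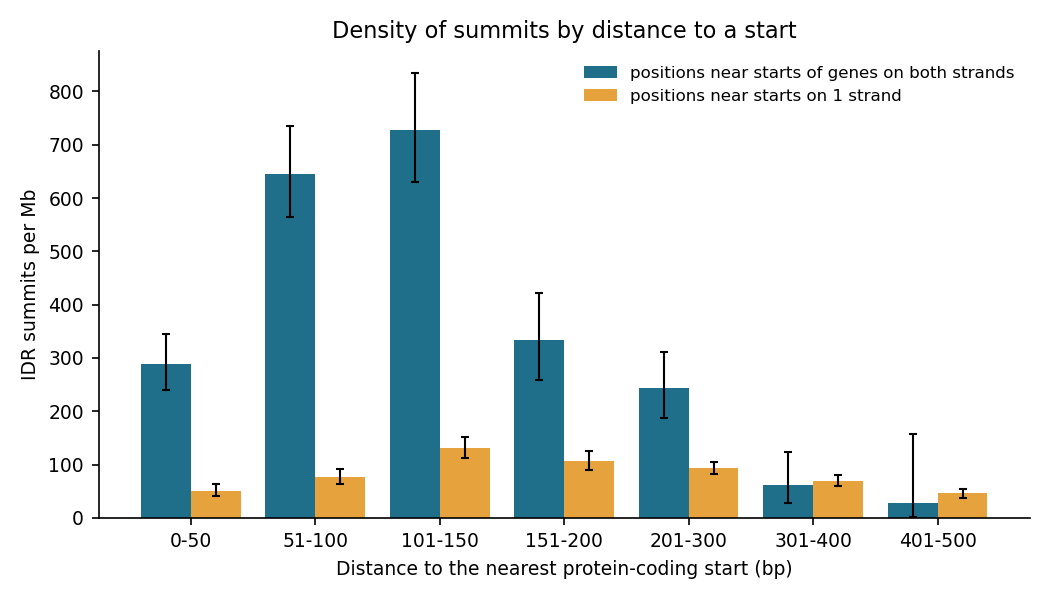
IDR summits per Mb (y axis) are given by distance to the nearest protein-coding start (x axis, bp), for positions near starts of genes on both strands and for positions near starts on 1 strand, with 95% exact Poisson intervals as error bars. Both-strand positions peak at 727 per Mb between 101 and 150 bp, where one-strand positions reach 130.9.

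Occupied pairs were then counted among all pairs in the annotation, which shows how often a divergent promoter carried a peak. Of 2667 pairs of protein-coding genes that point away from each other with their closest starts within 1000 bp, 698 carried an IDR summit within 500 bp of both starts (26.2%, 95% Wilson interval 24.5 to 27.9%). Some summits serve more than 1 pair, so this is not the count of members. Another 417 pairs (15.6%) had only a pooled summit below the IDR threshold. Pairs held 36.2% of the 13945 protein-coding genes, and 30.3% of the genes in a pair (29.1 to 31.6%) carried an IDR summit in the 500 bp around a start, against 8.74% of the genes in none.

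Pairs of intermediate spacing were occupied most often. The share was 22.4% of 429 pairs at 1 to 100 bp and 21.01% of 357 at 101 to 200 bp. It reached 39.9% (35.8 to 44.0%) of 542 pairs at 201 to 300 bp and 42.0% (37.3 to 46.9%) of 400 pairs at 301 to 400 bp. At 401 to 500 bp it was 27.0%, at 501 to 600 bp 25% and at 601 to 700 bp 8.44%, and of the 93 pairs at 901 to 1000 bp 0 were occupied, which allows up to 3.97%. The stretch in which a summit counts shrinks as the starts move apart, from a mean of 944 bp in the first bin to 348 bp at 601 to 700 bp. Per kb of that stretch, occupied pairs numbered 0.237 and 0.246 in the first 2 bins, 0.534 and 0.642 at 201 to 400 bp, 0.487 and 0.549 up to 600 bp and 0.242 at 601 to 700 bp.

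**Figure D4:**
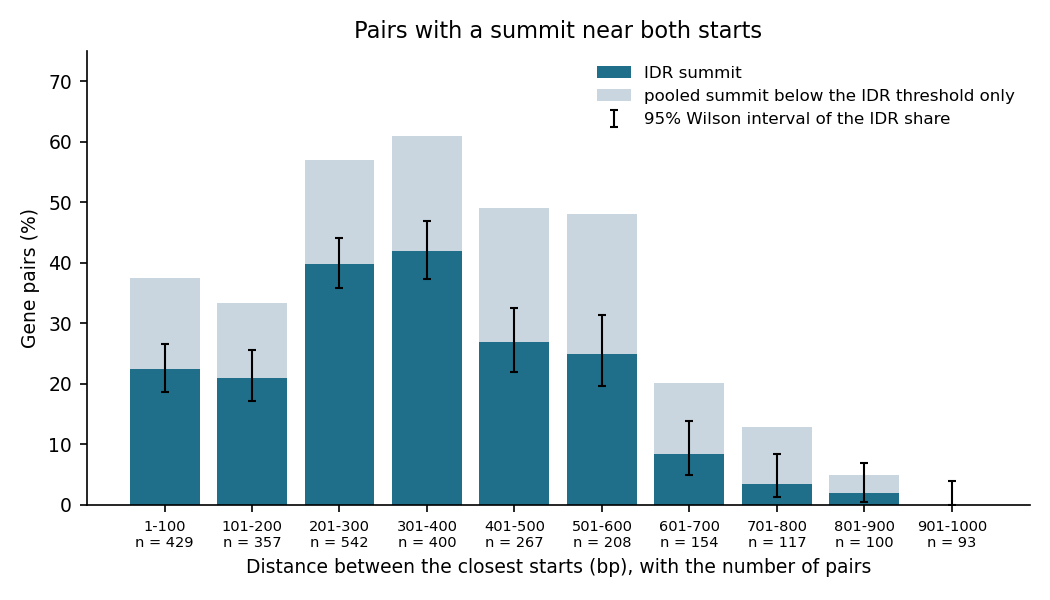
Bars give the share of divergent gene pairs (y axis, %) with an IDR summit within 500 bp of both starts, by the distance between the closest starts (x axis, bp, with the number of pairs). Pale bars add pairs with only a weaker pooled summit, and error bars are 95% Wilson intervals of the IDR share. The dark bars reach 39.9% and 42.0% at 201 to 400 bp and stay at or below 27.0% elsewhere.

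The DNA under members was rich in A and T, with a contrast at the gene starts. The median GC content of the 100 bp to each side of a member summit was 32.3% (quartiles 28.9 and 36.3%), against 33.8% in one-strand promoter peaks and in peaks away from starts, and 42.2% over the arms. In the 653 divergent members with more than 50 bp between the starts, the stretch between them had a median of 33.8% and the 200 bp downstream of each start 43.8%. The stretch between was lower in 580 of the 653 (88.8%, 95% Wilson interval 86.2 to 91.0%). The same share over all divergent pairs is not given here, so the 88.8% is not read as a trait of the peaks. Midpoints of occupied pairs had 30.9% and those of unoccupied pairs 33.8%. These sets differ in the distance between the starts, whose part was not tested.

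Of 17 motifs searched for on either strand, up to 100 bp from the summit, 7 were more frequent in members than in one-strand promoter peaks with intervals that did not overlap, and 2 less frequent. In the shorter window of 50 bp to each side only GAGA repeats kept intervals apart, and the DRE was found at 1.74% of members and 1.22% of one-strand promoter peaks, CGATA at 18.9% and 14.9%, TATAAA at 27.2% and 23.4%, AACAAT at 14.2% and 12.5% and TAATTA at 13.95% and 10.6%. Motif matches are descriptions of the letters and not of bound sites. The DRE was found at 6.83% of members (47 peaks), 3.10% of one-strand promoter peaks, 0.321% of peaks away from starts and 6.45% of windows of the same length around all 19252 protein-coding starts. Its core ATCGAT gave 15.7%, 8.44%, 4.86% and 16.4% in the same order. CGATA, a core of sites of the insulator protein BEAF-32 that the DRE also contains, gave 37.8%, 28.9%, 20.1% and 37.1%. Members were thus close to the share of all starts in these motifs, while their summits lie nearer to a start than those of one-strand peaks, and the part of that distance was not tested.

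The E-box CAGCTG was found at 12.1% of members, 7.60% of one-strand promoter peaks and 13.4% of all starts. A TATA box (TATAAA) was within reach in 46.1%, 37.0% and 26.9%, and the homeodomain core TAATTA in 23.7%, 17.9% and 9.39%. Both are made of A and T, of which members hold more, and the part of base composition was not tested. AACAAT, the Sox core, was found at 28.5% of members (95% Wilson interval 25.2 to 32.0%), 22.05% of one-strand promoter peaks (19.7 to 24.6%), 24.6% of peaks away from starts and 20.3% of all starts. ACAAT, which AACAAT contains, gave 55.2% and 48.8% in members and one-strand peaks with overlapping intervals. ACAAAG, which shares the letters ACAA with AACAAT, went the other way, at 11.05% of members and 13.2% of one-strand peaks, with overlapping intervals. It was at 13.75% of peaks away from starts and 12.6% of all starts. AACAAT is also mostly A and T, and the part of base composition was not tested for it either. GAGA repeats (GAGAGA), sites of the GAGA factor, were at 2.76% of members against 9.66% of one-strand promoter peaks and 9.74% of all starts, and the pyrimidine tract CTTTTC at 13.8% against 20.8% and 20.1%. Motif 1 was found at 2.03% of members, 1.13% of one-strand peaks and 3.25% of all starts.

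Occupied and unoccupied pairs were set side by side at the same place, the midpoint of the starts. The DRE was within 100 bp in 7.02% of 698 occupied pairs (95% Wilson interval 5.35 to 9.16%) and 9.09% of 1969 unoccupied pairs (7.90 to 10.4%), and ATCGAT in 17.2% (14.6 to 20.2%) and 22.6% (20.8 to 24.5%). TATAAA gave 45.6% and 37.7%, TAATTA 27.5% and 20.2%, and AACAAT 29.7% (26.4 to 33.2%) and 25.04% (23.2 to 27.0%). Unoccupied midpoints thus held ATCGAT more often, with intervals apart. The same held for the Motif 1 core, at 3.44% of occupied and 6.09% of unoccupied midpoints. It also held for the initiator form TCAGTY (Y for C or T), at 13.9% and 19.7%. Within members the signal hardly differed with the DRE, with a median of 223.1 for the 47 that hold it and 232.5 for the others.

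**Figure D5:**
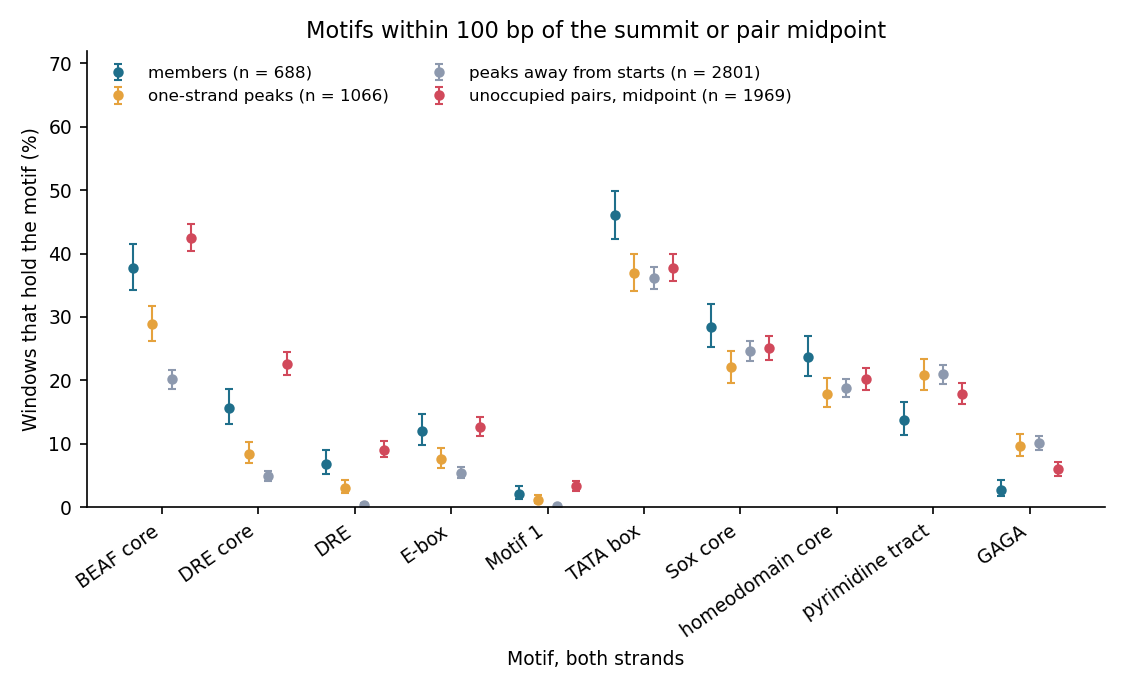
The share of windows (y axis, %) that hold each of 10 motifs on either strand within 100 bp is given for members, one-strand promoter peaks, peaks away from starts and midpoints of unoccupied pairs, with 95% Wilson intervals as error bars. Members lie above one-strand peaks for the BEAF and DRE cores, the DRE, the E-box, the TATA box, the Sox core and the homeodomain core, and below them for the pyrimidine tract and GAGA.

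Genes at members were counted against 19 lists of the basic cell machinery and 5 of development, with no test. Most genes at members, 1206 of 1355, were in none of the machinery lists. Over all 13945 protein-coding genes 9.72% had a start at a member, and 26.7% of those in a divergent pair. In the machinery lists together it was 149 of 742 (20.1%), or 31.8% of those in a pair, and 63.2% of these genes lay in a pair. Among cytoplasmic ribosomal protein genes, which encode the parts of the ribosome, 22 of 86 were at members (25.6%), and 41.5% of the 53 in a pair. RpS27/Nup37 had a signal of 580.2, RpL32/CG7943 529.7, CG17271/RpS20 481.4 and RpL34b/CG8132 456.2. Their median signal was 185.8, against 235.8 over all genes at members. Mitochondrial ribosomal protein genes were at members in 18 of 73 cases (24.7%), with a median signal of 249.9, and 79.5% of them lay in a pair. mRpS10, mRpS23 and mRpL23 are named above, and mRpL24 had 784.1.

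Shares above 20% were also found for Mediator subunits (8 of 25), Vps, Sec and COP vesicle traffic (17 of 59), DNA repair, mei and spn genes (12 of 38), splicing factors (9 of 35), aminoacyl-tRNA synthetases (7 of 32), RNA polymerase subunits (7 of 30), nuclear pore proteins (5 of 21), general transcription factors (5 of 24) and chaperonin subunits (3 of 8). MED27, a subunit of the Mediator coactivator, had 679.2 and MED30 560.8. Vps33B, of the endosomal tethering machinery, had 1056 and alphaCOP, of the COPI coat, 920.0. SerRS, which charges tRNA with serine, had 567.5 and IleRS, which does so with isoleucine, 508.7. Ercc1, a nucleotide excision repair gene, had 354.8 and Sf3b6, a splicing factor gene, 533.8. Polr2H and Polr2B, of RNA polymerase II, had 740.6 and 486.7. Between 63.3% (RNA polymerase subunits) and 88.6% (splicing factors) of the genes of these lists lay in divergent pairs, against 36.2% of all genes, and their shares within pairs were 27.8 to 44.7%.

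Shares were lower in the remaining machinery lists. DNA replication factors gave 5 of 27, mitochondrial import 3 of 18 and nucleolar factors 3 of 19. Genes of the respiratory chain and ATP synthase gave 11 of 90, with ND-MWFE at 718.4 and ND-ASHI at 706.3. Translation factors gave 7 of 58, with eIF4EHP (1131), a translational repressor, the strongest. Heat shock proteins (2 of 24), Rab GTPases (2 of 28) and proteasome subunits (3 of 48) had shares below that of all genes. Within pairs the respiratory chain (24.4%), translation factors (24.1%), nucleolar factors (21.4%), Rab GTPases (12.5%) and proteasome subunits (11.5%) lay below the 26.7% of all genes in pairs. The only pair with both genes in the same list was RPA1/Mcm2, genes of a single-strand DNA binding protein and a helicase subunit of replication, with a signal of 445.0.

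Few genes of the development lists were at members, and few lie in a divergent pair at all. Of 15 Sox and HMG-box genes 0 were at a member, as were 0 of 41 wing hinge and wing patterning genes and 0 of 12 Hox cluster genes, of which 2, 4 and 0 lie in a pair. Of 45 sensory bristle genes 2 were at members, out of 7 in a pair (28.6%, against 26.7% of all genes in pairs). They are E(spl)mdelta-HLH, a Notch target (472.6), and mam, a Notch coactivator (203.0). Of 46 ecdysone and juvenile hormone genes 2 were, out of 13 in a pair (15.4%). They are usp, which encodes the partner of the ecdysone receptor (261.2), and tai, which encodes a coactivator of that receptor (218.3).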

How the data were processed

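Sox15 ChIP-seq peaks of 3 replicates were analysed from the dm6 lists. Per the file headers and listing, the authors gave each peak a signal on an unstated scale and a −log10 q-value, and derived the IDR set from the replicate and pooled lists. The q-value was not used in any comparison. Chromatin was sheared by sonication to 200 to 800 bp, per the labels. Neither aligner nor caller is given in the sources used here. Read counts are not given, so depth is unknown, and the number of replicates and peaks limits the precision. Lists on dm3 were not used and no coordinates were converted.

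Starts came from Ensembl release 115 (BDGP6) and sequence from the RefSeq Release 6 assembly. Members, lists, motifs and tests were chosen with earlier results of these data known. Peaks were classified, matched and searched with Python 3.11.15, numpy 2.4.6, pandas 2.3.3 and scipy 1.17.1, and plotted with matplotlib 3.10.9, and these steps were tested on simulated data. Shares have 95% Wilson intervals. Replicates were compared by an exact sign-flip permutation test, the only test, since peaks are not replicates. Motif 1 contains its core, the DRE contains ATCGAT and CGATA, and AACAAT contains ACAAT. A match was letter for letter on either strand in a window of 201 bp. Gene lists were defined by symbol, and genes that matched a symbol pattern but not the group it names, such as Rab3GAP1 and Rrp1, were taken out after values had been seen. Named genes were those at the 25 strongest members, up to 4 per list by signal, pairs within 1 list, the 3 closest starts, the 3 summits on either side of the limit and the 3 weakest members. Names given for members missing in a replicate, and the words GGCGTAG, then AGGGG, and CANCNCTA, were chosen after their values had been seen. Alternatives covered the start window, starts used, peak position, peak list, overlap, motif window and leaving out each replicate.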

Additional observations from a re-analysis of the deposited data

How the results depend on the processing

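Of 54 alternative values 31 stayed within the limits set for each result and 23 moved. With a 250 bp window there were 434 members and a density ratio of 7.39, and with 1000 bp a ratio of 3.19. The 2277 strongest IDR peaks held 398 members and occupied 15.7% of pairs, and the peaks matched in all replicates occupied 19.8%. The whole pooled list gave a density ratio of 3.57 and 41.8% of pairs, and pairs up to 500 bp apart gave 31.4%. The share matched in all replicates was 82.6% for any overlap, 24.7% for at least 90% and 94.0% in the whole lists, and without 1 replicate it was 80.4 to 85.5%, since fewer matches are then asked for. Without 1 replicate 20.5 to 22.7% of pairs were occupied, 553 to 588 members remained, and the density ratio was 5.44 to 5.69. With the outermost start of each gene the summit lay between the starts in 79.7%. Windows of 50 bp separated 1 motif, GAGA, and of 250 bp 14, instead of 9, and GC content was 30.7% and 36.7%. The percentile difference stayed positive in its 8 alternatives (0.262 to 2.21). The cause of these moves was not tested beyond what each setting changes by construction. No paired analysis was possible because there is 1 group. The deposited lists give no read depth, so weak peaks cannot be weighed by their counts.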

Other observations

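Words of 8 and fewer letters were ranked at members after the main values had been seen, and the following are descriptions of words chosen in that way, with no test. GGCGTAG stood out at the strongest members. It lay within 100 bp of the summit in 18 of 688 members (2.62%, 95% Wilson interval 1.66 to 4.10%), in 1.78% of one-strand promoter peaks, in 1.00% of peaks away from starts and in 1.01% of windows around all starts. Among members it was in 6 of the 32 that rank in the top 100 of the IDR set (18.8%, 8.89 to 35.3%) and 5 of the 65 at ranks 101 to 455. It was in 1 of the 126 at ranks 456 to 1138, 5 of the 175 at ranks 1139 to 2277 and 1 of the 290 at ranks 2278 to 4555. One-strand promoter peaks showed a similar order, with 4 of 31, 6 of 124, 4 of 157, 3 of 256 and 2 of 498, so the word is not particular to members. The median signal was 698.5 in members with the word and 229.8 in those without.

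Within 150 bp of the summit GGCGTAG was found at 23 members, 9 of which were among the 25 strongest. They include Tcs5/CHMP2B, where its middle lay 78 bp from the summit, CG5611/Mtl (107 bp), CG3437/CG3552 (83 bp), mRpL23/CG9004 (96 bp), Hrd3/PTPMT1 (110 bp) and fws/Lamtor3 (56 bp), and 3 of these are in the printed stretches. Few matches sat under the summit itself, 2 within 25 bp, against 7 at 25 to 50 bp, 5 at 50 to 75 bp, 4 at 75 to 100 bp and 5 at 100 to 125 bp. The longer form with CA and any 2 letters before it was at 12 members (1.74%, 95% Wilson interval 1.00 to 3.02%) and 0.151% of all starts. One-strand promoter peaks held it at 1.22% (0.714 to 2.075%) and peaks away from starts at 0.607%, so it is not particular to members. At pair midpoints it was in 7 of 698 occupied and 0 of 1969 unoccupied pairs.

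AGGGG was also found more often at the strongest members, in 14 of the 32 within the top 100 (43.8%, 28.2 to 60.7%) and 15 of the 65 at ranks 101 to 455. It was in 13 of the 126 at ranks 456 to 1138 (10.3%) and 12 of the 175 at ranks 1139 to 2277 (6.86%). At ranks 2278 to 4555 it was in 40 of the 290 (13.8%, 10.3 to 18.2%), so the fall was not steady. In one-strand promoter peaks the shares were 38.7% and 11.8% at the top and bottom of the same order, and in peaks away from starts 35.1% and 14.6%. Over all ranks AGGGG was at 13.7% of members, 14.3% of one-strand promoter peaks and 15.2% of peaks away from starts. It is thus not particular to members.

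CANCNCTA is a form shared by several of the 8-letter words. Those words were ranked by the ratio of their share in members to that in one-strand promoter peaks. The form thus rests on this contrast, which is no independent support for it. It was found within 100 bp of 20.8% of member summits (95% Wilson interval 17.9 to 24.0%), 9.85% of one-strand promoter summits, 4.68% of peaks away from starts and 11.0% of windows around all starts. At midpoints of pairs it was in 16.9% of occupied pairs (14.3 to 19.9%) and 11.1% of unoccupied pairs (9.81 to 12.6%). The part of the distance between the starts, in which these pairs differ, was not tested. Only 1 of the 32 members in the top 100 held CANCNCTA, against 66 of the 290 at ranks 2278 to 4555. Its matches were most frequent 75 to 125 bp from the summit, with 78 and 72 per 25 bp, against 27 in the first 25 bp. The nearer start lies 100 bp from the summit in the median, and whether this place belongs to the start or to the summit was not tested.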
